A study of Homo sapiens with 32 samples.

Results

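The genes of glucose uptake, glycolysis, and the pentose phosphate pathway described here are 31 of the 25498 symbols in a gene-level table, chosen by symbol, and they include *VEGFA*, a secreted angiogenic factor. Of these, 30 were tested, having reached 5 or more counts in 3 or more libraries, as did 16995 of all symbols. RNA came from LNCaP, an androgen-dependent prostate cancer line that was derived from a metastasis to a lymph node. One group was grown in fetal bovine serum (FBS) and one in charcoal-stripped serum (CSS), which holds little steroid hormone. In the other 6 groups, cells that had spent about a day in CSS received EGF or NRG-1 at 100 ng/mL for 5 minutes, 1 hour, or 4 hours. EGF binds EGFR and NRG-1 binds HER3 and HER4, and these receptors can pair with HER2. The 8 groups held 4 libraries each, labelled as biological replicates 1 and 2 of 2 batches. The labels do not say whether replicates were separate cultures, so the P values measure the spread between these libraries, which may be technical.

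Glucose enters cells through facilitative transporters, is phosphorylated by hexokinase, and is split and oxidized to pyruvate by glycolysis. Phosphofructokinase sets the main control point of the pathway, and the PFKFB enzymes make and remove its activator, fructose 2,6-bisphosphate. Pyruvate is then either reduced to lactate by lactate dehydrogenase and exported, or oxidized in mitochondria by pyruvate dehydrogenase, which the PDK kinases inhibit, while the pentose phosphate pathway diverts glucose 6-phosphate toward ribose and NADPH. Normal prostate epithelium is known for low oxidation of citrate, and glycolysis is low in many primary prostate cancers.

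Depth ranged from 63822654 to 92401724 expected counts per library. All 10 markers of LNCaP checked (among them *KLK3*, *HOXB13*, and *FOLH1*) were above 0 in all 32 libraries. Of 12 markers of basal, stromal, leukocyte, and endothelial cells, *COL1A2* was at 0 in all 32 libraries, 4 (*KRT14*, *COL1A1*, *CD68*, and *VWF*) were above 0 in all libraries, and the other 7 reached at most 0.04 TPM (RSEM's abundance unit, scaled for transcript length and depth). Their summed level was 8.07 to 10.7 TPM in CSS, 16.6 to 19.4 TPM at 4 hours of EGF, 9.79 to 14.8 TPM at 4 hours of NRG-1, and 6.44 to 8.42 TPM in FBS. The part of these markers in the results at 4 hours was not tested. The libraries of batch 2 replicate 2 stood apart for several members, with low *HK2*, *PFKFB3*, and *PDK3* and high *PGK1*, *LDHB*, *PDK1*, and *PGD* within several groups, so counts are also given without these 8 libraries. In bulk RNA, fewer expressing cells and less RNA per cell cannot be told apart.

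At baseline in CSS the 5 most abundant members were enzymes of lower glycolysis. *GAPDH*, the glyceraldehyde phosphate dehydrogenase, was highest at 3376 ± 165 TPM (mean ± SD, n = 4). *TPI1* (triose phosphate isomerase, 1128 ± 65.6 TPM), *ALDOA* (aldolase, 1029 ± 90.5 TPM), and *ENO1* (enolase, 960.1 ± 51.4 TPM) followed. The libraries of *TPI1* and *ALDOA* overlapped, as did those of *ALDOA* and *ENO1*. Lactate dehydrogenase subunits *LDHB* (567 ± 23.1 TPM) and *LDHA* (466 ± 17.6 TPM) were both abundant. The glucose transporter gene *SLC2A1*, which encodes GLUT1, was at 23.1 ± 3.05 TPM. This was above the hexokinase *HK2* at 8.99 ± 1.43 TPM and below the hexokinase *HK1* at 56.6 ± 4.40 TPM. *PFKFB3*, whose enzyme strongly favours synthesis of the phosphofructokinase activator, was at 7.33 ± 0.655 TPM. Of the lactate exporters, *SLC16A1* (MCT1) was at 96.9 ± 11.1 TPM and *SLC16A3* (MCT4) at 0.845 ± 0.102 TPM. *SLC2A3* (GLUT3) had 0 or 1 count in each CSS library, and *PDK4* had 0.

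**Figure D1:**
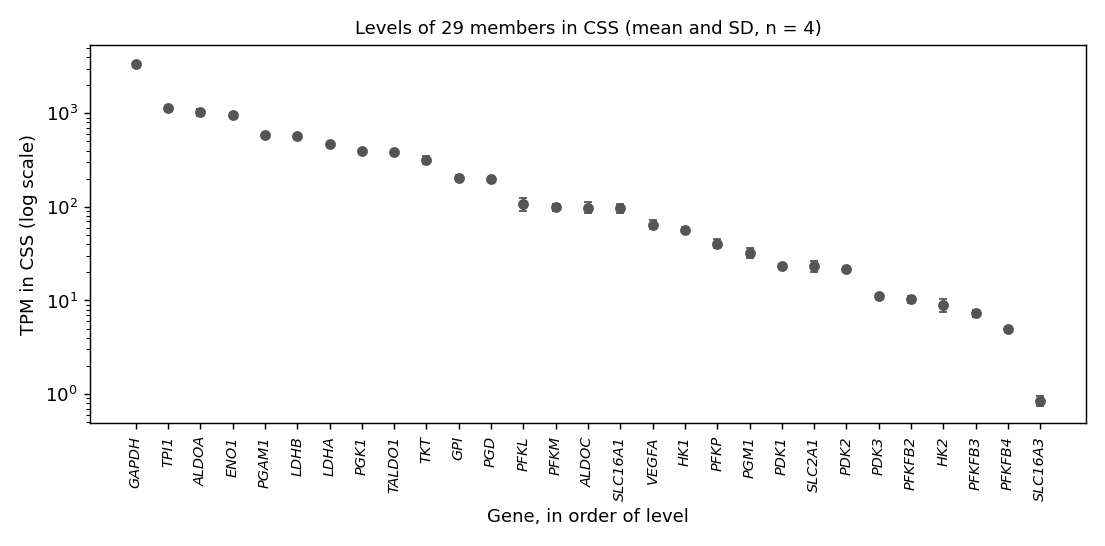
Level of 29 members in CSS in TPM on a log axis (points, mean; bars, SD; n = 4 libraries), in order of level. Levels run from 3376 TPM for *GAPDH* to 0.845 TPM for *SLC16A3*; *SLC2A3* and *PDK4*, at or near 0, are not drawn.

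The ligands were compared with CSS at each time to ask which genes respond to EGFR or HER3 ligands and how fast. After 5 minutes no member passed the test with either ligand (edgeR quasi-likelihood test, Benjamini-Hochberg adjustment over 16995 genes, adjusted P under 0.05). The count at an unadjusted P under 0.05 was also 0 for both ligands, as was that of DESeq2. Over all genes, 0.00588% were higher and 0% lower with EGF, and 0% were higher and 0% lower with NRG-1.

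After 1 hour, *SLC2A1* and *PFKFB3* rose with both ligands, and *SLC16A1* and *VEGFA* also rose with EGF. These were 4 of 30 members with EGF, against 6% of all genes higher, and 2 of 30 with NRG-1, against 4.45% of all genes. No member was lower (edgeR; 0 at an unadjusted P under 0.05 and 0 with DESeq2 for both ligands), against 3.51% of all genes with EGF and 2.28% with NRG-1. The median log2 fold change was 0.05 over the members and -0.01 over all genes with EGF, and 0.08 and -0.0045 with NRG-1. With NRG-1 the count was 5 with the replicate number as a block (against 7.13% of all genes in that fit), 6 with DESeq2, and 4 without the batch 2 replicate 2 libraries. The block added *ALDOA*, *ENO1*, and *VEGFA*. The counts within batches 1 and 2 were 3 and 2 for EGF and 2 and 2 for NRG-1.

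*PFKFB3* showed the largest rise at 1 hour among the members. Its levels in the 4 CSS libraries were 16.7, 17.4, 18.8, and 17.0 CPM (counts scaled by library size and TMM), in the order of batch 1 replicates 1 and 2 and batch 2 replicates 1 and 2. At 1 hour they were 46.6, 47.1, 52.5, and 46.3 CPM with EGF and 32.0, 29.3, 38.6, and 30.1 CPM with NRG-1. The 3 groups did not overlap, and every NRG-1 library lay between CSS and EGF. The log2 fold change was 1.46 ± 0.118 (SE; adjusted P = 8.23e-11) with EGF and 0.90 ± 0.117 (adjusted P = 1.96e-06) with NRG-1. With EGF it was a differentially expressed gene (DEG, a log2 fold change also beyond 1), as were 1.72% of all genes at that time. At 4 hours the levels were 40.3, 38.9, 37.5, and 32.3 CPM with EGF and 36.3, 36.3, 32.2, and 25.5 CPM with NRG-1. All of these lay above CSS, with log2 fold changes of 1.09 ± 0.117 (adjusted P = 6.87e-09) and 0.89 ± 0.117 (adjusted P = 3.34e-07). The log2 fold change at 1 hour within each batch was 1.47 and 1.47 for EGF, in batches 1 and 2, and 0.85 and 0.94 for NRG-1.

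*SLC2A1* first rose and then fell below its starting level. Its levels were 54.7, 47.1, 44.2, and 43.9 CPM in CSS. At 1 hour they reached 70.7, 69.4, 65.3, and 61.7 CPM with EGF and 70.3, 71.5, 61.7, and 56.4 CPM with NRG-1, all above the CSS libraries. At 4 hours they were 39.8, 42.1, 36.0, and 33.9 CPM with EGF and 33.7, 31.2, 27.5, and 26.0 CPM with NRG-1, all below the CSS libraries. The log2 fold change against CSS was 0.49 ± 0.0571 at 1 hour of EGF (adjusted P = 1.41e-07) and -0.32 ± 0.0573 at 4 hours (adjusted P = 2.52e-05). With NRG-1 it was 0.45 ± 0.0571 at 1 hour (adjusted P = 1.26e-06) and -0.69 ± 0.0577 at 4 hours (adjusted P = 7.88e-11). The direction at each time was the same in both batches and with all 4 same-numbered pairs of libraries. *VEGFA* also had an early rise with EGF (log2 fold change 0.34 ± 0.0744, adjusted P = 0.00188), and its NRG-1 value at 1 hour was 0.23 ± 0.0743 (adjusted P = 0.0607, and 0.00866 with the replicate block). The *VEGFA* call with EGF was lost in batch 2 alone (adjusted P = 0.315) and on TPM. *SLC16A1* rose by 0.13 ± 0.0373 with EGF (adjusted P = 0.0244), and the groups overlapped. This call was lost in 4 of 8 fits that left out a library (adjusted P up to 0.127), in each batch alone (0.0710 and 0.934), without a batch term, without the filter, and on TPM. *HK2*, the inducible hexokinase, gave 0.31 ± 0.108 with EGF (adjusted P = 0.0752), without overlap and higher in 4 of 4 pairs. It passed with the replicate block (adjusted P = 0.000785), which made 5 members, against 8.27% of all genes in that fit.

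The promoter windows of *SLC2A1* and *PFKFB3*, the members that rose with both ligands at 1 hour, and of *ENO1*, a later one with a single window listed, are given for orientation. Each is the 250 bases before a transcription start in RefSeq (build GRCh38.p14), printed 5′ to 3′ on the gene's strand. Capitals mark matches, on either strand, to ACGTG (the core of a hypoxia response element), to the related GCGTG, to the E-box CACGTG (which contains ACGTG), or to the EGR1 motif GCGTGGGCG (which contains GCGTG).
*SLC2A1*, chr1:42958869-42959118, minus strand: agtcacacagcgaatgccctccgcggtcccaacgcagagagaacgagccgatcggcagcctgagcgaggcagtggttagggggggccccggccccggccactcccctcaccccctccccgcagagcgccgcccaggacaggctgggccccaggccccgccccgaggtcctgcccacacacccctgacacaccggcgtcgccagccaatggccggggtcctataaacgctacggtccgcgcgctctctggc
*PFKFB3*, first window, chr10:6144671-6144920, plus strand: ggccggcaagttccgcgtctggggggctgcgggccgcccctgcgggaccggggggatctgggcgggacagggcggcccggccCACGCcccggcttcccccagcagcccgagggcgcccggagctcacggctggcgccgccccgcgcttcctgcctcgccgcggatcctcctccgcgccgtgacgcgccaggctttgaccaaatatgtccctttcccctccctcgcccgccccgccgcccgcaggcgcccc
*PFKFB3*, second window, chr10:6202682-6202931, plus strand: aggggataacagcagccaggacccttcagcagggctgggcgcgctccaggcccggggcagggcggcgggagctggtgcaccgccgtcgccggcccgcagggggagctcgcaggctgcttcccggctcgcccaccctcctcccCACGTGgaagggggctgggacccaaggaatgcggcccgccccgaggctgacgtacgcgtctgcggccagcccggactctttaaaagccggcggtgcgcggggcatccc
*ENO1*, chr1:8878687-8878936, minus strand: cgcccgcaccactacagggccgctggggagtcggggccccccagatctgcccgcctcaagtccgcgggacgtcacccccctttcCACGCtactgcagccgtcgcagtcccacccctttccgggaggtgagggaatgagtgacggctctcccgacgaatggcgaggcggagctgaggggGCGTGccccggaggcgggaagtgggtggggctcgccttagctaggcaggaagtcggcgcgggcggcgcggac
The *SLC2A1* window held no match. The second *PFKFB3* window held CACGTG once, its first window held GCGTG once, and the *ENO1* window held GCGTG at 2 places. Windows were listed for 27 of the members (57 windows). ACGTG was in 35.1% of the members' windows and 18.5% of all 35114 windows, GCGTG in 31.6% and 32.2%, CACGTG in 12.3% and 6.35%, and GCGTGGGCG in 3.51% and 0.721%. A match of letters is not evidence that a factor binds there, and windows of the same gene are not independent.

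After 4 hours, 13 of 30 members were higher and 6 lower with EGF, and 9 were higher and 5 lower with NRG-1. Of all genes, 24.6% were higher and 24.6% lower with EGF, and 21.6% were higher and 21% lower with NRG-1. The median log2 fold change of the members was 0.10 with EGF and 0.12 with NRG-1, against -0.02 and -0.01 over all genes. The members that changed with both ligands were *PFKP*, *PFKFB3*, *SLC16A3*, *LDHA*, *ENO1*, *ALDOA*, *TPI1*, *TKT*, and *PGD*, which rose, and *SLC2A1*, *PFKFB2*, *PFKFB4*, *PDK2*, and *PDK3*, which fell. *HK1*, *HK2*, *GPI*, and *GAPDH* rose and *SLC16A1* fell with EGF, and none of these passed the test with NRG-1. None of these 5 passed the test of the difference between the ligands. The comparisons with CSS share its 4 libraries, so those of EGF and NRG-1 are not independent. On deposited TPM with limma, the counts were 6 higher and 5 lower for EGF and 4 and 4 for NRG-1. The split between higher and lower differed on TPM, where scaling, test, transform, and filter all differ, and the cause was not tested. Of the members' calls, 68.4% were higher with EGF and 64.3% with NRG-1, against 54.5% and 50% on TPM. The median difference on TPM over 8374 genes of higher mean TPM lay 0.07 (EGF) and 0.10 (NRG-1) below the TMM-scaled one on the log2 scale. Without the batch 2 replicate 2 libraries the counts were 15 and 7 for EGF and 11 and 5 for NRG-1. In batches 1 and 2 taken alone, 13 and 5 members were higher and 5 and 2 lower for EGF, and 11 and 4 were higher and 4 and 1 lower for NRG-1.

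**Figure D2:**
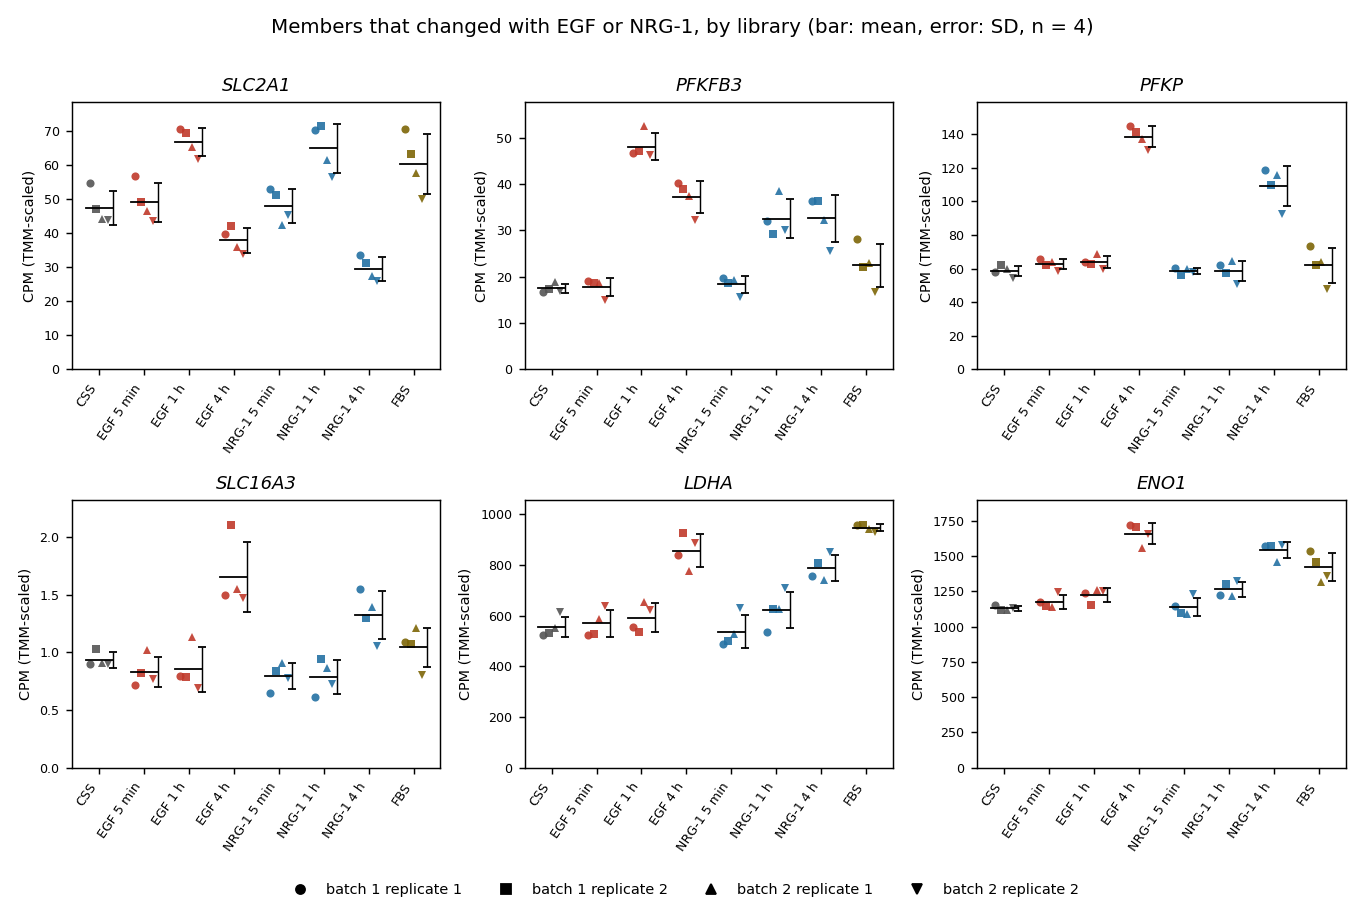
Level of 6 members in each library in TMM-scaled CPM, by group (horizontal bar, mean; error bar, SD, n = 4; marker shape, batch and replicate). *SLC2A1* is above CSS at 1 hour and below it at 4 hours with both ligands, *PFKFB3* is above CSS at both times, and *PFKP*, *SLC16A3*, *LDHA*, and *ENO1* are above CSS at 4 hours.

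Among phosphofructokinase subunits, the platelet-type *PFKP* passed the test with the ligands and the other 2 did not. In CSS its levels were 58.1, 61.9, 60.0, and 54.5 CPM, and at 1 hour they were 59.9 to 68.4 CPM in EGF libraries and 51.1 to 64.6 CPM in NRG-1 libraries. At 4 hours they were 145, 141, 137, and 131 CPM with EGF and 119, 110.0, 115, and 92.3 CPM with NRG-1, so that no library overlapped CSS. The log2 fold change was 1.24 ± 0.0856 (adjusted P = 8.23e-13) with EGF and 0.90 ± 0.0852 (adjusted P = 9.48e-10) with NRG-1. With EGF it was a DEG together with *PFKFB3*, which makes 2 of 30 members, against 9.56% of all genes. No member was a DEG with NRG-1 (edgeR), against 7.41% of all genes, and the log2 fold changes of *PFKP* and *PFKFB3* lay just under the limit of 1. The liver-type *PFKL* and the muscle-type *PFKM* had log2 fold changes of 0.17 ± 0.0989 and -0.12 ± 0.0661 for EGF, and 0.06 ± 0.0989 and -0.12 ± 0.0661 for NRG-1 (adjusted P from 0.139 to 0.686). With the replicate block, *PFKL* (adjusted P = 0.0162) and *PFKM* (0.0226) passed with EGF, and *PFKM* passed with NRG-1 (0.0291).

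The 3 PFKFB genes went different ways at 4 hours. While *PFKFB3* rose, *PFKFB2* fell, from 31.3 to 36.7 CPM in CSS to 26.7 to 29.4 CPM with EGF (log2 fold change -0.30 ± 0.0608, adjusted P = 0.000127) and 29.1 to 32.1 CPM with NRG-1 (-0.19 ± 0.0608, adjusted P = 0.0140). *PFKFB4*, at 8.95 to 10.2 CPM in CSS, fell to 6.77 to 8.01 CPM with EGF (-0.39 ± 0.109, adjusted P = 0.00421) and to 7.27 to 8.93 CPM with NRG-1 (-0.29 ± 0.109, adjusted P = 0.0313). The EGF libraries of both genes lay below CSS, whereas the *PFKFB2* libraries with NRG-1 overlapped CSS. Both enzymes make and break fructose 2,6-bisphosphate, as the PFKFB3 enzyme does, with other balances of the activities. The *PFKFB4* call with NRG-1 was lost in 5 of 8 fits that left out a library, with adjusted P up to 0.0789 there. It was also lost in batch 2 alone (adjusted P = 0.432), without a batch term, and on TPM. The *PFKFB4* call with EGF was lost in batch 2 alone (0.172), and that of *PFKFB2* with NRG-1 in each batch alone (0.123 and 0.211).

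Among transporters, *SLC16A3*, which exports lactate, rose from a low level. At 4 hours its EGF libraries (1.47 to 2.11 CPM) and NRG-1 libraries (1.06 to 1.55 CPM) all lay above those of CSS (0.895 to 1.03 CPM). The log2 fold change was 0.83 ± 0.162 (adjusted P = 8.66e-05) with EGF and 0.51 ± 0.166 (adjusted P = 0.0143) with NRG-1. The NRG-1 call was lost without NRG-1 batch 1 replicate 1 (adjusted P = 0.0667), in batch 2 alone (0.312), and on TPM. That with EGF was lost in batch 2 alone (adjusted P = 0.0546). The much more abundant *SLC16A1* fell by 0.10 ± 0.0373 on the log2 scale with EGF (adjusted P = 0.0231) and gave -0.02 ± 0.0373 with NRG-1 (adjusted P = 0.765). The EGF call was lost in 4 of 8 fits that left out a library (adjusted P up to 0.0688), in each batch alone (0.301 and 0.305), without a batch term, without the filter, and on TPM. *SLC2A3* had 0 to 2 counts in every library of CSS and of both ligands.

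Both hexokinases rose at 4 hours of EGF. *HK2* rose from 32.0 to 41.1 CPM in CSS to 44.1 to 51.4 CPM at 4 hours of EGF (log2 fold change 0.43 ± 0.108, adjusted P = 0.00135), without overlap. Its NRG-1 value was 0.23 ± 0.108 (adjusted P = 0.0915), and *HK1* gave 0.26 ± 0.089 (adjusted P = 0.0184) with EGF and 0.20 ± 0.089 (adjusted P = 0.0694) with NRG-1. The *HK1* call with EGF was lost without CSS batch 1 replicate 1 or EGF batch 2 replicate 1 (adjusted P up to 0.0628), in batch 2 alone, and on TPM. That of *HK2* was lost in batch 2 alone (adjusted P = 0.122) and on TPM. Both passed with NRG-1 under the replicate block (adjusted P = 0.00496 for *HK2* and 0.0193 for *HK1*). *GPI*, the glucose 6-phosphate isomerase, rose with EGF by 0.16 ± 0.0616 (adjusted P = 0.0323). This call was lost in 5 of 8 fits that left out a library (adjusted P up to 0.107), in each batch alone (0.161 and 0.163), without a batch term, without the filter, and on TPM. *PGM1*, which links glycogen to glycolysis, gave 0.02 ± 0.0472 and 0.08 ± 0.0472 with EGF and NRG-1 (adjusted P of 0.721 and 0.166).

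In lower glycolysis, 4 of 7 members rose with EGF, against 24.6% of all genes, and 3 with NRG-1, against 21.6%, and none fell. *ENO1* rose most, from 1114 to 1152 CPM in CSS to 1554 to 1722 CPM with EGF (log2 fold change 0.55 ± 0.0523, adjusted P = 5.54e-10) and 1460 to 1578 CPM with NRG-1 (0.45 ± 0.0523, adjusted P = 3.62e-08). *ALDOA* followed with 0.37 ± 0.052 (adjusted P = 6.88e-07) and 0.28 ± 0.0519 (adjusted P = 7.44e-05), and *TPI1* with 0.22 ± 0.0535 and 0.17 ± 0.0535 (adjusted P of 0.00127 and 0.0116). *GAPDH*, often used as a reference gene, rose with EGF by 0.15 ± 0.0461 (adjusted P = 0.00933). The phosphoglycerate kinase *PGK1*, the mutase *PGAM1*, and the second aldolase *ALDOC* did not pass with either ligand, with log2 fold changes between -0.09 and 0.16, though *PGAM1* passed with NRG-1 under the replicate block (adjusted P = 0.0348). The calls of *TPI1* and *GAPDH*, and that of *ALDOA* with NRG-1, were lost on TPM and within batch 2.

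*LDHA*, the lactate dehydrogenase subunit that favours lactate formation, rose at 4 hours. In CSS its levels were 522, 533, 553, and 614 CPM, and at 1 hour they were 535 to 653 CPM in EGF libraries and 533 to 708 CPM in NRG-1 libraries. At 4 hours they were 839, 927, 776, and 884 CPM with EGF and 755, 808, 739, and 853 CPM with NRG-1, all above CSS. The log2 fold change was 0.63 ± 0.076 (adjusted P = 5.68e-08) with EGF and 0.51 ± 0.0759 (adjusted P = 2.78e-06) with NRG-1. The heart-type subunit *LDHB* gave 0.08 ± 0.0684 and 0.12 ± 0.0684 (adjusted P of 0.358 and 0.181). With the replicate block it passed for NRG-1 (adjusted P = 0.0299).

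Among the pyruvate dehydrogenase kinases, *PDK2* and *PDK3* fell at 4 hours with both ligands. *PDK2* went from 28.9 to 29.4 CPM in CSS to 24.3 to 24.7 CPM with EGF (log2 fold change -0.25 ± 0.0424, adjusted P = 1.43e-05) and 24.0 to 26.3 CPM with NRG-1 (-0.21 ± 0.0424, adjusted P = 0.000203). *PDK3* went from 32.6 to 38.9 CPM to 23.8 to 28.7 CPM with EGF (-0.34 ± 0.0728, adjusted P = 0.000247) and 24.6 to 28.9 CPM with NRG-1 (-0.33 ± 0.0729, adjusted P = 0.000570). None of these ligand libraries overlapped CSS. *PDK1*, a kinase that responds to hypoxia, gave 0.03 ± 0.107 and 0.13 ± 0.107 (adjusted P of 0.867 and 0.368). *PDK4* had 0 to 4 counts in any library and was not tested.

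In the pentose phosphate pathway, *PGD* (6-phosphogluconate dehydrogenase) and *TKT* (transketolase) rose with both ligands at 4 hours. *PGD* gave 0.23 ± 0.0551 (adjusted P = 0.00113) with EGF and 0.25 ± 0.0552 (adjusted P = 0.000499) with NRG-1. *TKT* gave 0.28 ± 0.0653 (adjusted P = 0.000791) and 0.22 ± 0.0653 (adjusted P = 0.00693). The transaldolase *TALDO1* gave 0.03 ± 0.0636 and 0.04 ± 0.0636 (adjusted P of 0.749 and 0.617). The calls of *PGD* and *TKT* were lost on TPM and within batch 2.

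**Figure D3:**
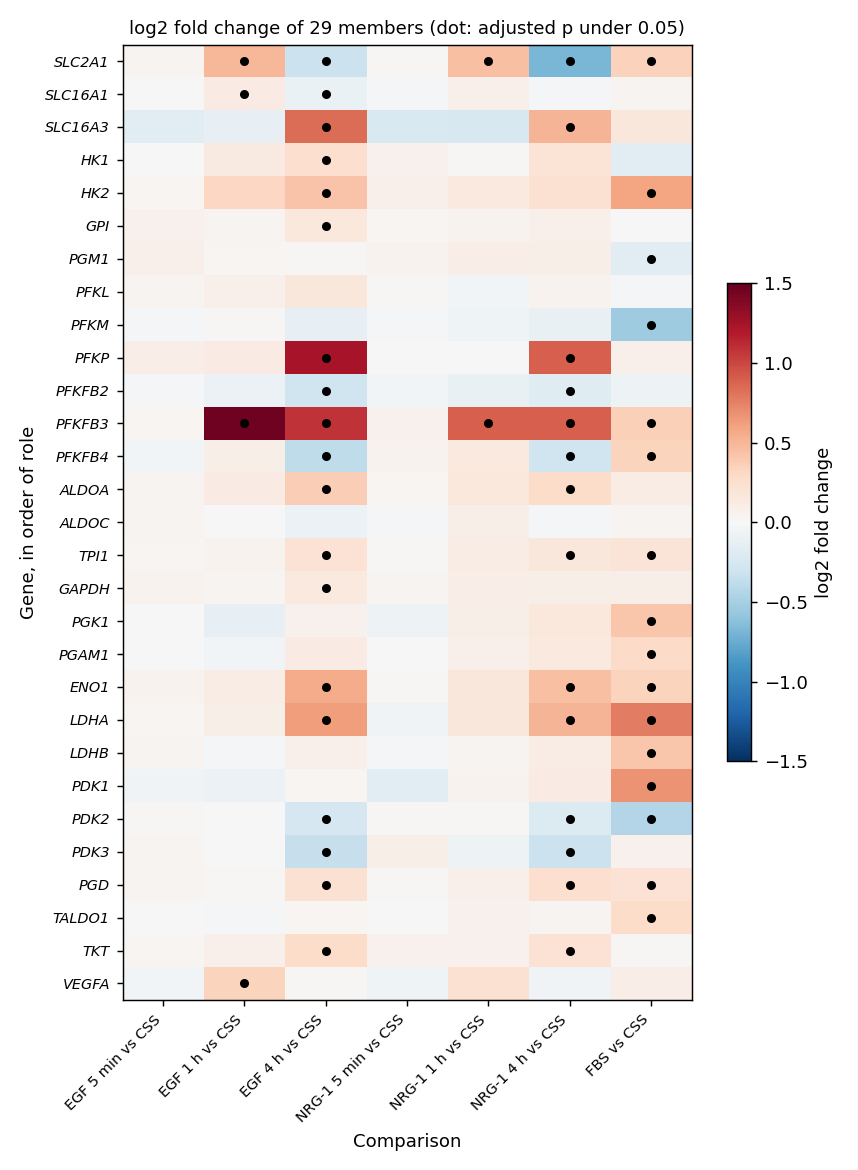
log2 fold change against CSS (colour) of 29 tested members, in order of role, for each ligand and time and for FBS; a dot marks an adjusted P under 0.05. *SLC2A3* is left out because its fold has only a lower bound. The 5-minute columns hold no dot; the dot of *TPI1* for FBS is a call whose direction reversed on TPM.

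The change between 1 and 4 hours was tested within each ligand. With EGF, 8 members were higher and 8 lower at 4 hours than at 1 hour, against 22.5% and 21.5% of all genes, and with NRG-1 5 were higher and 6 lower, against 19% and 18.5%. The replicate block gave 13 higher with EGF and 8 higher with NRG-1, against 27.3% and 23.1% of all genes in that fit. On TPM the counts were 4 higher and 9 lower for EGF and 4 and 3 for NRG-1. Within batches 1 and 2, 12 and 3 members were higher for EGF and 9 and 1 for NRG-1, and 8 and 1 were lower for EGF and 4 and 1 for NRG-1. *SLC2A1* fell by 0.82 ± 0.0575 on the log2 scale with EGF (adjusted P = 1.59e-12) and by 1.14 ± 0.058 with NRG-1 (adjusted P = 2.02e-15). It was the only member to be a DEG in the NRG-1 comparison (1 of 30, against 6.79% of all genes), and *PFKP* (1.12 ± 0.0854, adjusted P = 9.25e-12) the only one in the EGF comparison, against 8.22% of all genes. *PFKFB3* fell by 0.37 ± 0.115 with EGF (adjusted P = 0.00872) and gave -0.0046 ± 0.115 with NRG-1 (adjusted P = 0.984). *VEGFA* fell with both ligands (-0.32 ± 0.0744, adjusted P = 0.000873, and -0.28 ± 0.0744 (adjusted P = 0.00350).

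EGF and NRG-1 were compared directly at matched dose and time. At 1 hour 1 member was higher with EGF and none lower (edgeR; 0 lower at an unadjusted P under 0.05 and with DESeq2), against 0.941% and 0.118% of all genes, and at 4 hours 2 were higher and none lower (edgeR; 1 lower at an unadjusted P under 0.05 and 0 with DESeq2), against 1.25% and 0.412%. *PFKFB3* was higher with EGF at 1 hour, by 0.56 ± 0.115 on the log2 scale (adjusted P = 0.00545), in 4 of 4 same-numbered pairs and without overlap. At 4 hours *SLC2A1* was higher with EGF by 0.36 ± 0.0577 (adjusted P = 0.000441), having fallen less, and *PFKP* by 0.35 ± 0.0843 (adjusted P = 0.0282), both without overlap. *PFKFB3* at 4 hours gave 0.20 ± 0.115 (adjusted P = 0.572). The *PFKP* difference passed in 2 of 8 fits that left out a library, with adjusted P up to 0.111. The differences in batches 1 and 2 were 0.62 and 0.53 for *PFKFB3*, 0.34 and 0.40 for *SLC2A1*, and 0.33 and 0.38 for *PFKP*, and none of them passed within batch 2 (adjusted P from 0.349 to 0.908).

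**Figure D4:**
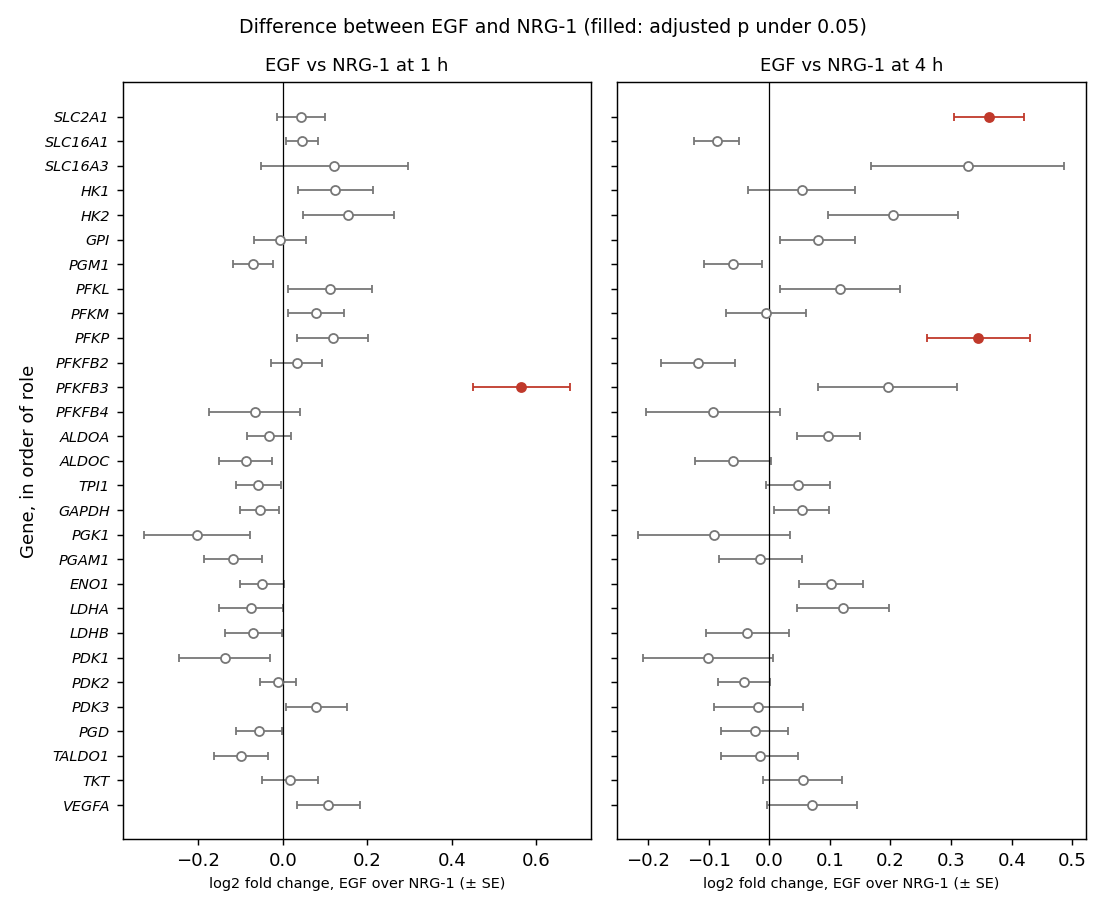
Difference between EGF and NRG-1 (log2 fold change, EGF over NRG-1; point, estimate; bar, SE) for 29 tested members at 1 and 4 hours; a filled point has an adjusted P under 0.05. *PFKFB3* at 1 hour (0.56) and *SLC2A1* (0.36) and *PFKP* (0.35) at 4 hours are filled, and the x axes differ in range.

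Cells in FBS were compared with cells in CSS to ask what differs between full and hormone-depleted serum. The labels do not say whether the FBS group also had its medium changed on the day before, so serum and medium change cannot be told apart. In FBS, 14 of 30 members were higher and 3 lower, against 26% and 26.8% of all genes. The median log2 fold change was 0.14 over the members and -0.0082 over all genes. This split was not kept on TPM with limma, where scaling, test, transform, and filter all differ, and the cause was not tested. On TPM, where the median difference over the 8374 genes of higher mean TPM lay 0.20 below the TMM-scaled one on the log2 scale, 4 members were higher and 4 lower. Within batches 1 and 2, 17 and 3 members were higher and 3 and 2 lower, and without the batch 2 replicate 2 libraries 17 were higher and 3 lower.

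*SLC2A3*, which encodes the high-affinity transporter GLUT3, exceeded the floor of 3 counts in FBS libraries alone. Its counts were 17 to 40 per FBS library and 0 to 2 in every other library. In CPM the FBS libraries held 0.477, 0.303, 0.212, and 0.336, and the CSS libraries 0, 0.0143, 0, and 0. Against a floor of 3 counts per library, the FBS level was at least 8.92-fold higher than that in CSS. The gene entered the test only through its FBS libraries, so its calls against FBS followed from the filter and are given as a description, although they stand in the counts of members. The gene was at least 8.27-fold lower at 4 hours of EGF and at least 7.64-fold lower at 4 hours of NRG-1 than in FBS. Reads may be shared with its near-identical copy *SLC2A14*, which had 0 to 2 counts in FBS and 0 elsewhere, so the assignment is uncertain. No other member was a DEG between FBS and CSS, against 8.71% of all genes.

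Of the other members, the lactate dehydrogenase subunits rose in FBS. *LDHA* was at 957, 959, 939.7, and 931 CPM in FBS, above all CSS libraries (522 to 614 CPM), with a log2 fold change of 0.77 ± 0.0762 (adjusted P = 1.38e-09). *LDHB* went from 366 to 387 CPM in CSS to 473 to 542 CPM in FBS (0.42 ± 0.0685, adjusted P = 7.91e-06). Both calls were also made on TPM and in each batch.

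The pyruvate dehydrogenase kinases split. *PDK1* was higher in FBS, at 85.0 to 97.2 CPM against 52.9 to 66.5 CPM in CSS (0.67 ± 0.107, adjusted P = 6.15e-06). *PDK2* was lower, at 20.7 to 22.1 CPM against 28.9 to 29.4 CPM (-0.44 ± 0.0425, adjusted P = 1.04e-09), and *PDK3* gave 0.06 ± 0.0725 (adjusted P = 0.509). The other members lower in FBS were *PFKM* (-0.53 ± 0.0663, adjusted P = 1.02e-07) and *PGM1* (-0.17 ± 0.0473, adjusted P = 0.00321), and neither overlapped CSS.

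**Figure D5:**
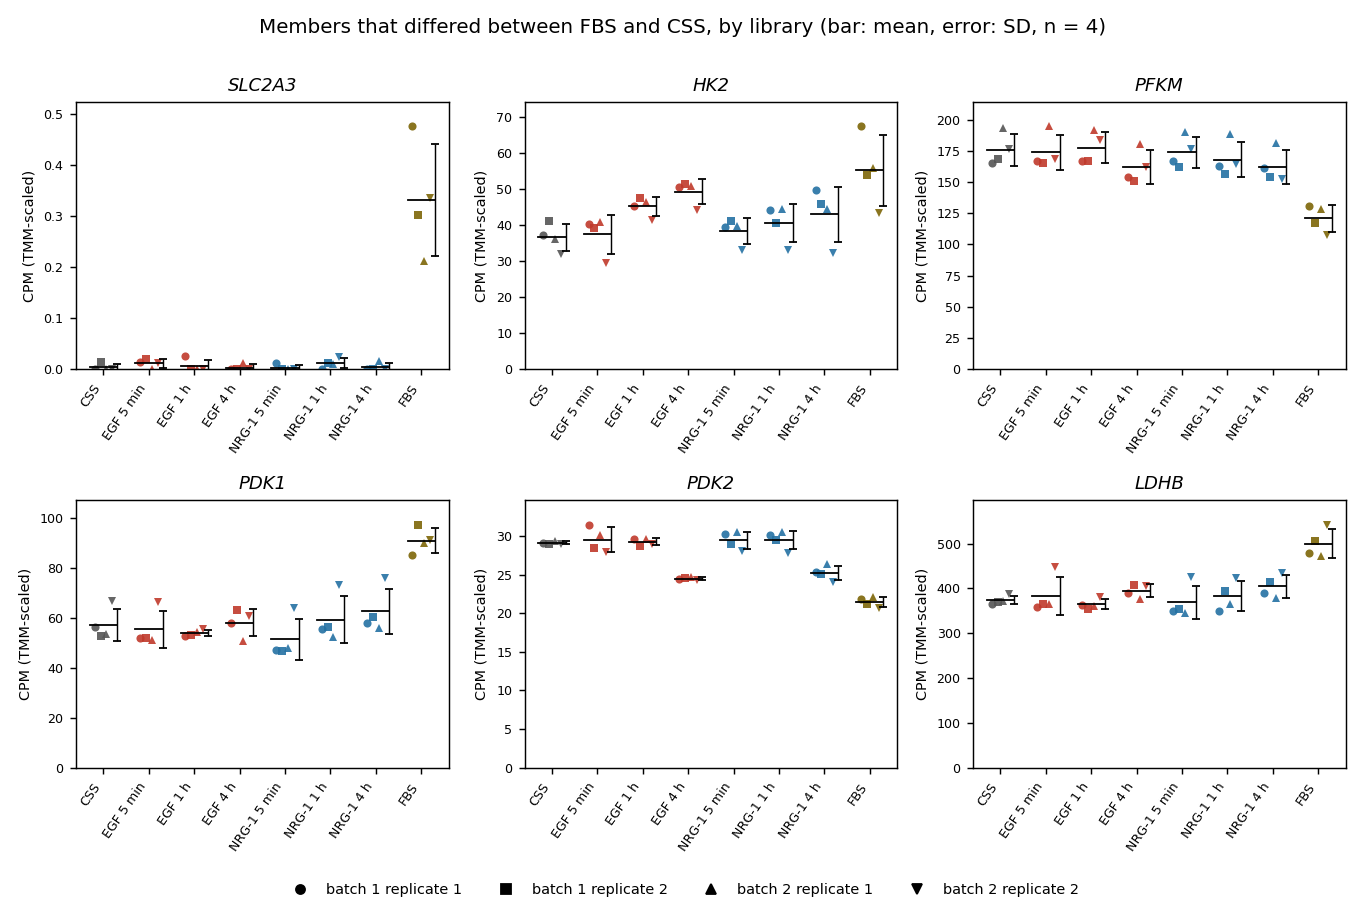
Level of 6 members that differed between FBS and CSS, in TMM-scaled CPM by library and group (horizontal bar, mean; error bar, SD, n = 4; marker shape, batch and replicate). *SLC2A3*, *PDK1*, *LDHB*, and *HK2* are highest in FBS on average, *PFKM* and *PDK2* are lowest there, and the batch 2 replicate 2 library (downward triangle) is low for *HK2* and high for *PDK1* and *LDHB* in several groups.

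The remaining members higher in FBS were *HK2* (0.59 ± 0.108, adjusted P = 4.00e-05), *PGK1* (0.42 ± 0.126, adjusted P = 0.00654), *PFKFB3* (0.36 ± 0.117, adjusted P = 0.0114), *SLC2A1* (0.34 ± 0.0571, adjusted P = 1.10e-05), *PFKFB4* (0.34 ± 0.108, adjusted P = 0.00939), *ENO1* (0.33 ± 0.0522, adjusted P = 5.46e-06), *PGAM1* (0.29 ± 0.0686, adjusted P = 0.000902), *TALDO1* (0.27 ± 0.0636, adjusted P = 0.000745), *PGD* (0.21 ± 0.0552, adjusted P = 0.00180), and *TPI1* (0.19 ± 0.0535, adjusted P = 0.00309). Of these only *PGK1* kept its call on TPM, and the value of *TPI1* turned to -0.0062 there. In batch 2 alone *PGK1* lost its call (adjusted P = 0.319), and of these members only *SLC2A1* kept it (0.0366). The *PFKFB3* and *PFKFB4* calls were lost without FBS batch 1 replicate 1 (adjusted P = 0.0766 and 0.0733).

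Ligand-treated cells in CSS were also set beside cells in FBS. At 4 hours of EGF, 11 members were higher and 11 lower than in FBS, against 31.5% and 31% of all genes, and at 4 hours of NRG-1 9 were higher and 9 lower, against 29.4% and 27.8%. On TPM the EGF counts were 11 and 7, and the median difference over the 8374 genes of higher mean TPM lay 0.12 above the TMM-scaled one. *PFKP* was higher than in FBS (1.16 ± 0.0855 with EGF, adjusted P = 1.41e-12, and 0.82 ± 0.0851 with NRG-1, adjusted P = 2.37e-09). *SLC2A1* was lower (-0.67 ± 0.0574, adjusted P = 4.40e-11, and -1.03 ± 0.058, adjusted P = 4.58e-15), and so was *PDK1* (-0.64 ± 0.107, adjusted P = 7.12e-06, and -0.54 ± 0.107, adjusted P = 8.32e-05). *LDHA* gave -0.14 ± 0.0757 (adjusted P = 0.101, and 0.0430 with the replicate block) with EGF and was lower with NRG-1 (-0.26 ± 0.0758, adjusted P = 0.00386). Apart from *SLC2A3*, *PFKP* was a DEG with EGF, against 16.4% of all genes, and *SLC2A1* with NRG-1, against 14.4%. Within batches 1 and 2, 9 and 8 members were higher and 11 and 3 lower with EGF, and 6 and 5 were higher and 11 and 1 lower with NRG-1.

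Other genes of the same pathways, taken from a longer list, moved in both directions. Of 49 tested, 10 were higher and 13 lower at 4 hours of EGF and 12 and 10 at 4 hours of NRG-1, with median log2 fold changes of -0.02 and 0.03. These counts are 20.4% and 26.5% of the list with EGF and 24.5% and 20.4% with NRG-1, near the shares of all genes (24.6% and 24.6%, and 21.6% and 21%). *SLC2A12*, a further glucose transporter, went from 64.2 ± 12.5 CPM (SD, n = 4) in CSS to 24.0 ± 1.79 CPM with EGF (log2 fold change -1.40 ± 0.0764, adjusted P = 4.83e-15) and 29.7 ± 0.743 CPM with NRG-1 (-1.09 ± 0.0758, adjusted P = 1.66e-12). *ENO2*, the neuronal enolase, went from 34.1 ± 6.78 CPM to 76.2 ± 16.6 CPM with EGF (1.15 ± 0.0715, adjusted P = 8.40e-14) and 64.6 ± 16.3 CPM with NRG-1 (0.91 ± 0.0713, adjusted P = 1.88e-11). *PGP*, a phosphoglycolate phosphatase, rose by 1.18 ± 0.0643 with EGF (adjusted P = 5.03e-15) and 1.17 ± 0.0644 with NRG-1 (adjusted P = 9.05e-15). *SLC2A13*, an inositol transporter, fell with both ligands (-0.98 ± 0.142 and -0.70 ± 0.141 on the log2 scale, adjusted P of 1.41e-06 and 0.000176).

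Of 27 regulators of the pathway, 15 were higher and 9 lower at 4 hours of EGF (55.6% and 33.3%, against 24.6% and 24.6% of all genes). With NRG-1 these were 12 and 9 (44.4% and 33.3%, against 21.6% and 21%). This list was chosen with earlier results of these data known, so its shares are a description and not a test. *EGLN3*, a prolyl hydroxylase that marks HIF for degradation, rose from 14.2 ± 0.213 CPM to 115 ± 11.8 CPM with EGF (3.02 ± 0.0873, adjusted P = 4.63e-21) and 74.8 ± 10.7 CPM with NRG-1 (2.40 ± 0.0855, adjusted P = 7.14e-19). *EPAS1*, which encodes HIF-2α, rose by 2.65 ± 0.109 and 2.47 ± 0.109 (adjusted P of 9.83e-18 and 7.19e-17). *PRKAA1*, which encodes a catalytic subunit of AMPK, rose by 1.37 ± 0.113 and 1.34 ± 0.112 (adjusted P of 3.00e-11 and 7.52e-11). *PPARGC1A*, a coactivator of mitochondrial genes, fell from 0.262 CPM (-1.02 ± 0.333 and -2.02 ± 0.390 on the log2 scale, adjusted P of 0.0117 and 9.81e-05).

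Of 25 hypoxia-responsive genes outside glycolysis, 8 were higher and 7 lower at 4 hours of EGF (32% and 28%, against 24.6% and 24.6% of all genes). With NRG-1 these were 8 and 8 (32% and 32%, against 21.6% and 21%). These shares too are a description, since the list was chosen with earlier results known. *BHLHE40*, a transcriptional repressor, rose by 0.95 ± 0.149 and 0.68 ± 0.149 (adjusted P of 4.46e-06 and 0.000431), and *ADM*, which encodes the peptide adrenomedullin, fell from 0.340 ± 0.0373 CPM (-1.06 ± 0.241 and -0.97 ± 0.242 on the log2 scale, adjusted P of 0.000530 and 0.00174). *EGLN3* is on this list too.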

How the data were processed

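RNA-seq was made from 32 LNCaP libraries (8 groups of 4, in 2 batches) after polyA capture with a strand-specific kit. The authors deposited 2 values per gene, the RSEM expected counts (11.2% of them not whole) and TPM, which RSEM scales by transcript length and depth. Per the submitters' processing notes, Trimmomatic 0.36, STAR 2.7.0f, RSEM, and genome build hg19 were used. The annotation is not given in the sources used here.

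Expected counts were rounded, only genes that reached 5 counts in 3 or more libraries were used, and TMM-scaled counts were fitted in R 4.3.3 with edgeR 4.0.16 (quasi-likelihood test, 1 coefficient per group plus batch, all 32 libraries). P values were adjusted by Benjamini-Hochberg over 16995 genes, passing means an adjusted P under 0.05, and a DEG also has an absolute log2 fold change above 1. CPM are counts scaled by library size and TMM. DESeq2 1.42.0 on counts and limma 3.58.1 on log2(TPM + 1), where fold changes of low genes are understated, served as alternatives, with other filters, pseudocounts, covariates, batches, and left-out libraries. Shares of all genes are those of the edgeR fit unless the replicate block is named, and are not given for the other alternatives. On data simulated for EGF at 4 hours against CSS, edgeR recovered 196 of 200 changed genes with 10 false calls among 16771. DESeq2 recovered 196 with 26 false calls, and limma 188 with 12 false calls among 13699. Whether these rates hold for absolute log2 fold changes below 1, which most members had, was not tested. Whether they hold where libraries deviate together by batch and replicate number was not tested either.

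Depth was 63822654 to 92401724 counts per library. Counts were lowest for *PDK4* (0 to 4 per library), *SLC2A3* (0 to 40), and *SLC16A3* (46 to 185), where precision is least. No 2 libraries of a group agreed within counting noise (chi-square per degree of freedom 6.50 to 262 over 48 pairs). Libraries with the same batch and replicate number deviated together from their group means (Pearson r 0.34 to 0.94 in 112 of 112 pairs, across 12758 genes, which are not independent). After batch means were removed, r was 0.40 to 0.91 in batch 2 and -0.40 to 0.53 in batch 1 (15 of 28 pairs over 0.1). The replicate number was therefore also fitted as a block. A floor of 3 counts per library bounds folds against groups near 0 and covers counting error only.

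The members and lists were chosen with earlier results of these data known. Values in every library are given for members that were a DEG in any comparison or were among the 2 with the largest change against CSS at 1 hour, 4 hours, or in FBS. Genes of the longer lists were named as the up to 4 with the largest change at 4 hours, of which 1 is not reported here. Of the symbols in those lists, *TIGAR* was not matched, and *ERO1A* was matched by its older symbol. Promoter windows came from RefSeq (GRCh38.p14), a build other than that of the counts, and were used for sequence only.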

Additional observations from a re-analysis of the deposited data

Results flagged for a closer look

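In 20 of 233 groups of 4 libraries, 1 library lay far from the other 3 by Dixon's criterion, where chance gives about 12. The deviating library was batch 2 replicate 2 in 11 of them. At 5 minutes of EGF this library was high for *PGK1* (698 CPM against 465 to 480), *LDHB* (447 against 359 to 365), and *PDK1* (66.3 against 51.1 to 51.9), and low for *HK2* (29.4 against 39.1 to 40.8), *PFKFB3* (15.0 against 18.7 to 19.1), and *PDK3* (29.8 against 36.9 to 37.4). At 5 minutes of NRG-1 it was high for *PGK1* (635 against 445 to 458), *LDHB* (425 against 345 to 354), *PDK1* (63.7 against 46.8 to 48.0), and *PGD* (228 against 198 to 200.3). At 4 hours of EGF it was low for *HK2* (44.1 against 50.5 to 51.4). Batch 2 replicate 1 was high for *PFKM* at 5 minutes of EGF (195 against 165 to 168), *PFKFB3* (52.5 against 46.3 to 47.1) and *PFKFB4* (12.6 against 9.15 to 9.72) at 1 hour of EGF, and *HK1* at 1 hour of NRG-1 (129 against 109 to 112), and low for *ENO1* at 4 hours of NRG-1 (1460 against 1570 to 1578). Batch 1 replicate 2 was high for *SLC16A3* in CSS (1.03 against 0.895 to 0.907) and at 4 hours of EGF (2.11 against 1.47 to 1.55) and for *PDK3* in CSS (38.9 against 32.6 to 33.0). Batch 1 replicate 1 was low for *PFKFB2* at 1 hour of EGF (29.5 against 33.2 to 33.9). The *SLC16A3* values rest on fewer than 200 counts per library.

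Effects differed between the ligands for *PFKFB3* at 1 hour (log2 difference 0.56, EGF over NRG-1) and for *SLC2A1* (0.36) and *PFKP* (0.35) at 4 hours. Effects differed between 4 hours and 1 hour of EGF for *SLC2A1* (-0.82), *PFKFB4* (-0.47), *PFKFB3* (-0.37), *PDK3* (-0.34), *VEGFA* (-0.32), *PDK2* (-0.26), *SLC16A1* (-0.23), and *PFKFB2* (-0.22), and for *PFKP* (1.12), *SLC16A3* (0.95), *LDHA* (0.54), *ENO1* (0.44), *ALDOA* (0.25), *PGD* (0.20), *TKT* (0.20), and *TPI1* (0.16). With NRG-1 they differed for *SLC2A1* (-1.14), *PFKFB4* (-0.44), *VEGFA* (-0.28), *PDK3* (-0.24), *PDK2* (-0.23), and *SLC16A1* (-0.10), and for *PFKP* (0.89), *SLC16A3* (0.75), *LDHA* (0.34), *ENO1* (0.29), and *PGD* (0.17). All of these passed the edgeR test of the difference itself. Leaving out 1 library ended the calls between times of *TKT* and *TPI1* with EGF in 1 and 2 of 8 fits, and those of *PDK3*, *PGD*, and *SLC16A1* with NRG-1 in 1, 1, and 6 of 8.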

How the results depend on the processing

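Of 2631 recomputed values of members that passed, 2325 kept direction and call, 303 lost the call, and 3 reversed. DESeq2 and the fit with the replicate number as a block kept all 126 calls, and leaving out 1 library kept 951 of 1008. Batch 2 alone kept 44 of 123 calls, batch 1 alone 109 of 123, and limma on log2(TPM + 1) 84 of 123. Removing the 8 batch 2 replicate 2 libraries, an alternative chosen after seeing the data, kept 123 of 126. *TPI1* in FBS against CSS reversed on TPM, to -0.0062 with pseudocount 1, with and without the filter, and also with 0.1. The cause of lost calls was not tested. The fits within batch 1 and within batch 2 both had 2 libraries per group.

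Counts of members moved by over 1.5 times as follows. The replicate block gave 5 higher at 1 hour of NRG-1 (2 in the fit reported), 13 higher at 4 hours against 1 hour of EGF (8), and 8 for NRG-1 (5). Of all genes, the block called 7.13%, 27.3%, and 23.1% higher in these comparisons. It lost no call. At 1 hour of NRG-1, DESeq2 gave 6 higher, a minimum of 10 counts in every library 4, and removal of the batch 2 replicate 2 libraries 4. Of the 2 members higher with EGF than NRG-1 at 4 hours, 0 remained with no batch term, 1 with only the groups compared, 1 in batch 1, 0 in batch 2, 0 on TPM under all 3 settings, and 1 to 2 when a library was left out. The 1 member at 1 hour was 0 in batch 2, 0 on TPM with pseudocount 0.1, and 0 with no TPM filter. Batch 2 alone gave 2 higher at 1 hour of EGF, 5 higher and 2 lower at 4 hours of EGF, 4 higher and 1 lower at 4 hours of NRG-1, 3 higher and 1 lower at 4 hours against 1 hour of EGF, 1 higher and 1 lower for NRG-1, 3 higher in FBS against CSS, 3 lower at 4 hours of EGF against FBS, and 5 higher and 1 lower for NRG-1. Batch 1 alone gave 9 higher at 4 hours against 1 hour of NRG-1. TPM with pseudocounts 1 and 0.1 gave 2 higher at 1 hour of EGF, 6 higher at 4 hours of EGF, 4 higher at 4 hours of NRG-1, 4 higher at 4 hours against 1 hour of EGF, 3 lower for NRG-1, 4 higher in FBS against CSS, and 7 lower at 4 hours of EGF against FBS. With no TPM filter these were 6, 4, 4, 3, and 6 for 4 hours of EGF, 4 hours of NRG-1, the times of EGF, the times of NRG-1, and FBS.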
